A study of Homo sapiens with 18 samples.

Results

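The genes described here are 4 that carry a small heat shock protein name, HSPB1, HSPB8, HSPB11 and CRYAB, taken by symbol from the table of gene counts, which lists 26485 genes. RNAseq was carried out on SW620, an established colon cancer cell line, in 18 libraries that form 6 groups of 3. Cells were treated with a scramble siRNA or with an siRNA against LONP1 (siLonp1), which encodes the mitochondrial protease Lonp1, and they stayed at 37 °C (Ctrl), were heated to 42 °C for 1 h and collected (HS), or were heated in the same way and returned to 37 °C for 1 h (HS+REC). The silencing was transient, all groups were transfected, and the sources used here do not state which of the siRNAs against Lonp1 named for the study served for RNAseq. The comparisons ask how heat and recovery changed these genes and whether the silencing of Lonp1, which the study placed beside heat shock factor 1 (HSF1) in the nucleus, altered that change.

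Small heat shock proteins are chaperones that need no ATP. They share an alpha-crystallin domain, form oligomers that open under stress, and hold unfolded proteins until the HSP70 machinery refolds them or passes them to degradation. HSPB1 (HSP27) is the broadly expressed member and also acts on actin filaments and on cell survival. CRYAB (alpha-B-crystallin) is abundant in lens and muscle, and HSPB8 (HSP22) works with the co-chaperone BAG3 to deliver clients to autophagy. HSPB11 bears the family name but lacks the alpha-crystallin domain and is a subunit of the IFT-B complex of intraflagellar transport, which carries cargo along cilia. HSF1 drives heat-inducible genes by binding repeats of the unit GAA and its reverse TTC, the heat shock element.

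In hg38 with the GENCODE annotation, HSPB1 lies on the plus strand at chr7:76302673-76304295 and HSPB8 on the plus strand at chr12:119171555-119224855, and the canonical transcript of each has 3 exons. CRYAB lies on the minus strand at chr11:111908564-111923722, with 3 exons in its canonical transcript. HSPB11, which GENCODE lists as IFT25 and which was matched through a RefSeq synonym, lies on the minus strand at chr1:53916574-53945699 with 6 exons. On the opposite strand CRYAB overlaps HSPB2 and C11orf52. The table holds 0 counts for C11orf52 and at most 7 counts in any library for HSPB2, and the strand setting of the authors' counting is not given in the sources used here.

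RefSeq promoters were matched for 3 of the 4 genes, HSPB1, HSPB8 and HSPB11. The 250 bases before the start are shown because 2 of these genes answered heat and the other did not. They are given 5′ to 3′ on the strand of the gene in build GRCh38.p14, with a pair of facing heat shock units (GAANNTTC) in capitals. The windows are chr7:76302423-76302672 for HSPB1, chr12:119178681-119178930 for HSPB8, and chr1:53945700-53945949 for the start of HSPB11 that lies next to its GENCODE gene model. The HSPB8 window stands before the RefSeq start at 119178931, which lies inside the longer GENCODE range given above.
HSPB1: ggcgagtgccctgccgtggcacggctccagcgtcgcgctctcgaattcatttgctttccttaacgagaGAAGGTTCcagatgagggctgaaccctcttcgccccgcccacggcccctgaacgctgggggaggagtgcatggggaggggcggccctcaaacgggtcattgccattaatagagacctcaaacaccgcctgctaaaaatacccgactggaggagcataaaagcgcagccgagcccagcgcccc
HSPB8: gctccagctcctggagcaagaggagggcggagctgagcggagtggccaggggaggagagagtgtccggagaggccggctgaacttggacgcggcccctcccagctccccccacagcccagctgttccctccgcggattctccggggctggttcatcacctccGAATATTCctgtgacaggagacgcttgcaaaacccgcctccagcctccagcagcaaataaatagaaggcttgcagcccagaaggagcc
HSPB11: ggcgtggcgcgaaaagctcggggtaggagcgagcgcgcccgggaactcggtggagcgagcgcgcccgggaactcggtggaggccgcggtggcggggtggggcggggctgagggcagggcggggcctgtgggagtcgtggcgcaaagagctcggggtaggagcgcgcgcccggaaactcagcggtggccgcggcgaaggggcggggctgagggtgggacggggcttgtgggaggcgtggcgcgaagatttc
The HSPB1 window held the letters gaaggttc at -182 to -175 from the start, and the HSPB8 window held gaatattc at -88 to -81. Neither window of HSPB11 (the other spans chr1:53946306-53946555) held GAANNTTC or TTCNNGAA, which were searched as written and read the same on both strands. GAANNTTC stood in 5.78% of 35116 RefSeq promoter windows of this length and either form in 11.6%. The heat shock element with 3 alternating units, which contains the shorter forms, was searched from either unit. The pair of searches are each other's reverse complement, and each matched 0.441% of windows and none of the windows of these genes. These matches are letters in a window and were not tested as binding sites.

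The libraries held 30815860 to 47279297 counts each (median 40847024.5). Values are library-scaled counts (CPM) corrected by TMM factors, and they were tested for the 12832 genes with a CPM above 1 in at least 3 libraries. A gene passed a comparison at a Benjamini-Hochberg adjusted p of at most 0.05 in edgeR's quasi-likelihood test. LONP1 ranged from 197 to 233 CPM over the 9 scramble libraries and from 11.5 to 28.9 CPM over the 9 siLonp1 libraries, and siLonp1 minus scramble on the log2 scale was -3.43 for Ctrl, -4.19 for HS and -3.01 for HS+REC. EPCAM (332 to 456 CPM), KRT8 (4420 to 6400 CPM) and VIL1 (256 to 353 CPM) marked epithelial cells in every library, CDX2 ran from 9.97 to 30.6 CPM, and KRT20 was low at 0.248 to 1.25 CPM. Of the 6 markers of other cell types, PTPRC and COL1A2 stayed below 0.08 CPM, PECAM1 below 0.5 CPM, ACTA2 at 0.395 to 1.02 CPM and DES at 0.652 to 2.07 CPM, and the collagen gene COL1A1 ranged from 8 to 34.6 CPM.

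Heat raised HSPB1, CRYAB and HSPB8 in cells of both siRNA arms, from a moderate Ctrl level for HSPB1 and from almost no counts for CRYAB and HSPB8. All 3 genes passed the test after HS and after HS+REC in both arms with a fold change above 2. HSPB11 did not pass after heat in any arm or time. For comparison, the share of all tested genes that passed in this direction with a fold change above 2 was 2.94% for HS in scramble, 3.42% for HS in siLonp1, 3.78% for HS+REC in scramble and 4.51% for HS+REC in siLonp1. HSPB8 and CRYAB exceeded 1 CPM in heated libraries only, which is what admitted them to the test, so nothing is read from the count of genes called. Of the markers of other cell types, COL1A1 also rose with heat, from 9.21 CPM in Ctrl scramble to 17.0 in HS and 30.2 in HS+REC as group means (1.86-fold and 3.28-fold, edgeR adjusted p = 5.62e-07 and 4.6e-12), and 1.70-fold and 3.44-fold in siLonp1. The 6 markers summed to 9.72 to 12.3 CPM in Ctrl libraries, 15.8 to 21.0 in HS libraries and 31.4 to 37.2 in HS+REC libraries. Most of each sum was COL1A1, and COL1A2, the other collagen gene, stayed at or below 0.0511 CPM. In Ctrl, HS and HS+REC scramble, DES stood at 0.717, 0.877 and 0.857 CPM as group means. ACTA2 stood at 0.880, 0.666 and 0.832 CPM and PECAM1 at 0.130, 0.130 and 0.0920 CPM. The part of these markers in the heat results was not tested. In bulk RNA, more cells with a transcript and more transcript per cell cannot be told apart.

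HSPB1 stood at 187, 193 and 191 CPM in Ctrl scramble and at 223, 231 and 217 CPM in Ctrl siLonp1. After HS it stood at 967, 1101 and 1124 CPM in scramble and at 1355, 1207 and 1212 CPM in siLonp1. After HS+REC it stood at 1099, 1189 and 1630.4 CPM in scramble and at 2131, 1484 and 1453 CPM in siLonp1. Every heated library was thus above every Ctrl library, and the recovered groups were the most spread. HS raised HSPB1 5.60-fold in scramble (log2 2.48, SE 0.13, edgeR adjusted p = 2.45e-13) and 5.62-fold in siLonp1 (log2 2.49, SE 0.13, edgeR adjusted p = 2.12e-13). At HS+REC the rise over Ctrl was 6.87-fold in scramble and 7.55-fold in siLonp1. HSPB1 took between 0.0196% of all counts, in a Ctrl scramble library, and 0.1988%, in a HS+REC siLonp1 library.

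CRYAB had 0, 2 and 0 counts in the Ctrl scramble libraries and 1, 3 and 1 counts in the Ctrl siLonp1 libraries. It had 141, 160 and 167 counts after HS in scramble and 175, 171 and 166 counts after HS in siLonp1. At HS+REC it had 263, 342 and 434 counts in scramble and 494, 381 and 242 counts in siLonp1. The gene was therefore near the floor of detection at 37 °C and well counted after 1 h of heat. With so few Ctrl counts the change is given as the ratio of the summed counts of the groups, each divided by the summed library totals, with an exact 95% interval that covers counting error only. The ratio to Ctrl was 247 (68.0 to 2046) for HS in scramble and 101 (43.0 to 312) for HS in siLonp1. It was 490 (135 to 4049) for HS+REC in scramble and 209 (89.1 to 644) for HS+REC in siLonp1. The intervals of the arms overlapped, and the lower ratios of siLonp1 rest on 5 Ctrl counts against 2 in scramble. Both Ctrl scramble counts lie in replicate 2. Without that library Ctrl scramble has 0 counts. Against an assumed floor of 3 counts over the group the ratio was 105 for HS and 208 for HS+REC, with no interval. Without Ctrl siLonp1 replicate 2, the ratios in siLonp1 became 167 for HS and 344 for HS+REC.

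HSPB8 had 1, 1 and 0 counts in the Ctrl scramble libraries and 1, 0 and 1 counts in the Ctrl siLonp1 libraries. After HS it had 30, 49 and 38 counts in scramble and 44, 37 and 38 counts in siLonp1. At HS+REC it had 68, 71 and 72 counts in scramble and 105, 82 and 51 counts in siLonp1. These are small numbers in libraries of this size, at most 2.50 CPM. The ratio of HSPB8 to Ctrl was 61.8 (16.7 to 516) for HS in scramble and 58.7 (15.9 to 490) for HS in siLonp1. It reached 99.5 (27.2 to 827) for HS+REC in scramble and 111 (30.4 to 923) for HS+REC in siLonp1. Without Ctrl siLonp1 replicate 2, which had 0 counts, the ratios in siLonp1 became 38.7 for HS and 73.4 for HS+REC.

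HSPB11 stood at 21.5, 21.5 and 22.8 CPM in Ctrl scramble, at 19.2, 19.7 and 25.4 CPM in HS scramble and at 21.5, 24.6 and 22.6 CPM in HS+REC scramble. These groups overlapped. In siLonp1 it stood at 14.3, 14.5 and 16.4 CPM in Ctrl, at 17.3, 14.7 and 17.4 CPM in HS and at 18, 16.8 and 17.7 CPM in HS+REC. The log2 change with HS was -0.04 in scramble (95% interval -0.23 to 0.15) and 0.13 in siLonp1 (-0.07 to 0.33). With HS+REC it was 0.06 in scramble (-0.13 to 0.25) and 0.22 in siLonp1 (0.02 to 0.41), where the groups did not overlap but the adjusted p of edgeR was 0.0655. That value went under 0.05 in several other fits, among them DESeq2 (0.0464), the 2 groups fitted alone (0.0297) and the fit without Ctrl siLonp1 replicate 3 (0.0346).

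**Figure D1:**
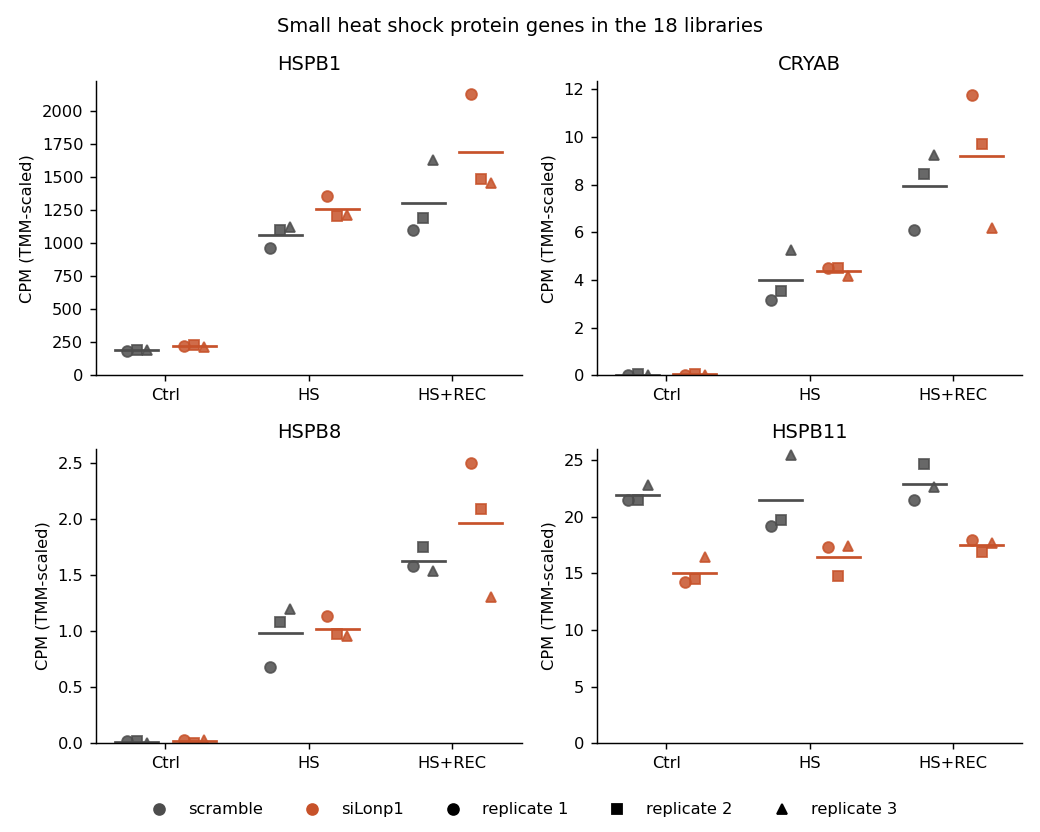
TMM-scaled CPM (y axis, linear, a separate scale for each gene) of HSPB1, CRYAB, HSPB8 and HSPB11 in each of the 18 libraries, by condition (x axis); grey is scramble, orange is siLonp1, marker shapes are replicate numbers and bars are the means of 3 libraries. HSPB1, CRYAB and HSPB8 are higher in every heated library than in every Ctrl library, whereas in HSPB11 the siLonp1 libraries sit below the scramble libraries of the same condition.

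Compared per kilobase of exon sequence, the genes kept a clear order. In HS scramble HSPB1 stood at 656 ± 52.4 CPM per kb (SD, n = 3), HSPB11 at 7.13 ± 1.15, CRYAB at 0.911 ± 0.256 and HSPB8 at 0.276 ± 0.0769. In HS+REC siLonp1, where CRYAB and HSPB8 were highest, the levels were 1041 ± 236, 5.82 ± 0.196, 2.10 ± 0.642 and 0.548 ± 0.170 CPM per kb in the same order. CRYAB thus stayed below HSPB11 even after heat, and this order held in the heated groups when the canonical transcript was used as the length. In Ctrl, CRYAB and HSPB8 rested on 0 to 3 counts a library and were not ordered. Over the groups, mean HSPB1 CPM rose in the order Ctrl scramble, Ctrl siLonp1, HS scramble, HS siLonp1, HS+REC scramble and HS+REC siLonp1, of which HS+REC scramble overlapped each of HS scramble, HS siLonp1 and HS+REC siLonp1.

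After the hour of recovery at 37 °C, CRYAB and HSPB8 rose further in both arms and HSPB1 rose further in siLonp1, with the largest fold change in CRYAB. CRYAB rose 2.02-fold from HS to HS+REC in scramble (95% interval 1.52 to 2.69, edgeR adjusted p = 0.000382) and 2.10-fold in siLonp1 (1.59 to 2.78, edgeR adjusted p = 0.000136). HSPB8 rose 1.67-fold in scramble (1.20 to 2.32, edgeR adjusted p = 0.0185) and 1.93-fold in siLonp1 (1.40 to 2.66, edgeR adjusted p = 0.00194). HSPB1 rose 1.34-fold in siLonp1 (1.13 to 1.60, edgeR adjusted p = 0.00848), while in scramble its change was 1.23-fold (1.03 to 1.46), the groups overlapped and the adjusted p of edgeR was 0.0750. At the end of HS, mean HSPB1 CPM had reached 81.5% of its HS+REC level in scramble and 74.5% in siLonp1. The same share was 60.8% and 52.0% for HSPB8 and 50.4% and 47.7% for CRYAB.

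Among all genes tested, 14.2% rose from HS to HS+REC in scramble and 16.3% in siLonp1. Of the 4 genes, 2 rose in scramble and 3 in siLonp1. The log2 change of HSPB11 was 0.10 in scramble (-0.09 to 0.29) and 0.09 in siLonp1 (-0.11 to 0.28). The difference between the arms in this step, a contrast added after the data were seen, was 0.05 on the log2 scale for CRYAB (-0.53 to 0.63), 0.21 for HSPB8 (-0.46 to 0.88) and 0.13 for HSPB1 (-0.22 to 0.48), and none of these passed (edgeR adjusted p from 0.833 to 0.963), while 1.38% of all genes did. The smaller steps rest on single libraries. The step of HSPB1 in scramble, 0.30 on the log2 scale, ranged from 0.10 without HS+REC scramble replicate 3 (edgeR adjusted p = 0.524) to 0.41 without HS+REC scramble replicate 1, where it passed (edgeR adjusted p = 0.0164). It also passed without HS+REC siLonp1 replicate 1 (edgeR adjusted p = 0.0299) and when genes of low counts were kept (0.00125). The step of HSPB1 in siLonp1 became 0.21 on the log2 scale without HS+REC siLonp1 replicate 1 (edgeR adjusted p = 0.150). The step of HSPB8 in scramble became 0.51 without HS scramble replicate 1 (edgeR adjusted p = 0.145) and 0.68 without HS+REC scramble replicate 2 (edgeR adjusted p = 0.0647).

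**Figure D2:**
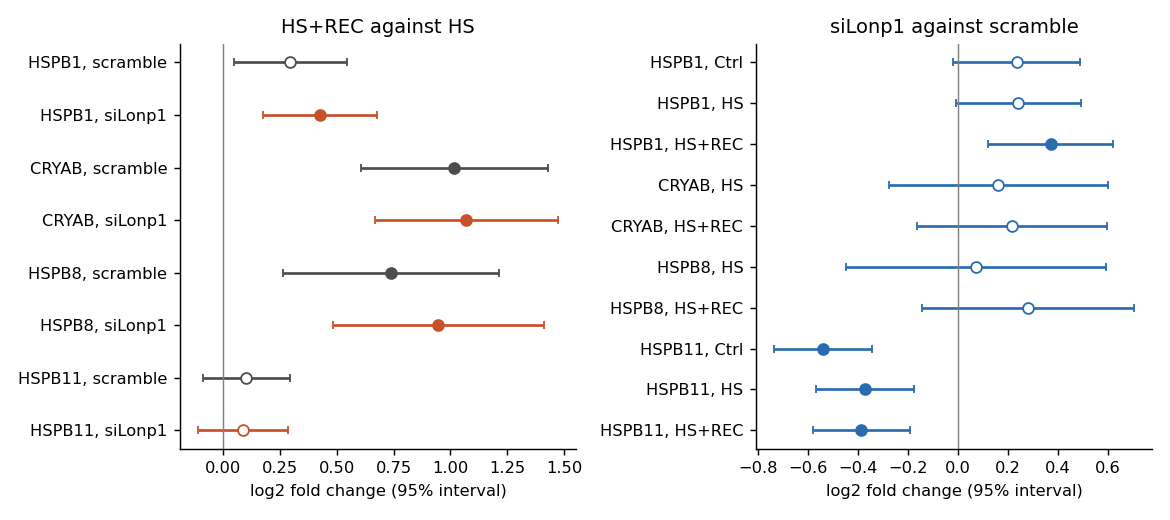
Log2 fold changes (x axis) with 95% intervals from edgeR for HS+REC against HS in each siRNA arm (left) and for siLonp1 against scramble in each condition (right); filled points passed at an adjusted p of at most 0.05. On the left CRYAB lies farthest from 0, at 1.02 in scramble and 1.07 in siLonp1, and on the right HSPB11 lies below 0 in each condition while HSPB1 lies above 0 and passes in HS+REC; siLonp1 values of CRYAB and HSPB8 in Ctrl are left out because of their few counts.

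Silencing of Lonp1 lowered HSPB11 in all 3 conditions. Its level in siLonp1 was 68.8% of that in scramble in Ctrl (log2 -0.54, SE 0.09, edgeR adjusted p = 5.99e-05), 77.2% in HS (log2 -0.37, SE 0.09, edgeR adjusted p = 0.00202) and 76.5% in HS+REC (log2 -0.39, SE 0.09, edgeR adjusted p = 0.00134). In each condition every siLonp1 library was below every scramble library. The fall did not differ detectably between conditions: the interaction with HS was 0.17 on the log2 scale (-0.11 to 0.44) and that with HS+REC was 0.15 (-0.12 to 0.43). Such falls were common after this silencing, as the share of all tested genes that fell was 22.9% at 37 °C, 26.7% after HS and 27.3% after HS+REC. Of the 7 epithelial markers, CDX2, a transcription factor of the intestine, fell under siLonp1 by 0.90, 1.38 and 1.07 on the log2 scale in Ctrl, HS and HS+REC. KRT20 rose 2.04-fold, 2.10-fold and 1.87-fold and CDH1 1.54-fold, 1.54-fold and 1.41-fold in the same conditions. The 7 markers summed to 8321 to 8681 CPM in Ctrl scramble and 9175 to 9811 in Ctrl siLonp1, to 8837 to 9268 and 10400 to 10866 after HS, and to 7942 to 9132 and 7903 to 9680 after HS+REC. DES, a muscle marker, rose 1.77-fold, 1.70-fold and 1.83-fold, at 0.717 to 1.57 CPM in the group means. ACTA2, the other muscle marker, was too low to be tested, and its group means went the other way. They were 0.880 CPM in Ctrl scramble and 0.530 in Ctrl siLonp1, 0.666 and 0.522 after HS, and 0.832 and 0.715 after HS+REC. The part of these changes in the fall of HSPB11 was not tested.

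HSPB1 went the other way by a smaller amount. Relative to scramble it was 1.18-fold in Ctrl (log2 0.24, 95% interval -0.02 to 0.49, edgeR adjusted p = 0.117), 1.18-fold in HS (log2 0.24, -0.01 to 0.49, edgeR adjusted p = 0.0952) and 1.29-fold in HS+REC (log2 0.37, 0.12 to 0.62, edgeR adjusted p = 0.0127). The libraries of the arms did not overlap in Ctrl and HS, where the test was not passed, and did overlap in HS+REC, where it was. The HS+REC value became 0.16 without HS+REC siLonp1 replicate 1 (edgeR adjusted p = 0.225), 0.26 without HS+REC scramble replicate 1 and 0.31 without HS+REC scramble replicate 2 (edgeR adjusted p = 0.0875 and 0.0660), and it did not pass when its 2 groups were fitted alone (edgeR adjusted p = 0.0697). At 37 °C and after HS the same test passed when only the groups compared entered the fit (0.000174 and 0.0141) or when genes of low counts were kept (0.00451 and 0.00283). Averaged over the 3 conditions, a contrast added after the data were seen, the log2 difference was 0.28 (0.14 to 0.43, edgeR adjusted p = 0.00103). By the same contrast 36.1% of all genes tested were higher in siLonp1. No difference between the arms in the effect of heat on HSPB1 passed, with an interaction of 0.01 for HS (-0.35 to 0.36) and 0.14 for HS+REC (-0.22 to 0.49) on the log2 scale, and 1.87% and 1.58% of all genes passed these interactions.

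CRYAB and HSPB8 did not pass for siLonp1 in the heated cells, and their intervals were wide. The log2 difference between siLonp1 and scramble for CRYAB was 0.16 in HS (-0.28 to 0.60, edgeR adjusted p = 0.539) and 0.22 in HS+REC (-0.16 to 0.59, edgeR adjusted p = 0.331). For HSPB8 it was 0.07 in HS (-0.45 to 0.59, edgeR adjusted p = 0.823) and 0.28 in HS+REC (-0.14 to 0.71, edgeR adjusted p = 0.254). Libraries of both arms overlapped in each case. Without HS+REC siLonp1 replicate 3, the HS+REC values became 0.43 for CRYAB and 0.50 for HSPB8 and both passed (edgeR adjusted p = 0.0343 and 0.0333), whereas without HS+REC siLonp1 replicate 1 the value of CRYAB became -0.01.

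In each heated group some of these genes ranged more widely between libraries than the median gene. In HS scramble the range over the 3 libraries was 0.72 on the log2 scale for CRYAB, 0.79 for HSPB8 and 0.40 for HSPB11, and 98.2%, 98.7% and 89.8% of all genes tested had a smaller range. These shares, here and below, are not matched for level, and counting error widens the range of genes with few counts. HSPB8 had 30 to 49 counts a library in HS scramble and CRYAB 141 to 167, and the part of counting error was not tested. In HS+REC scramble it was 0.57 for HSPB1 and 0.59 for CRYAB, with 95.3% and 95.9% of genes smaller, but 0.19 for HSPB8 and 0.20 for HSPB11, below the median of 0.21. HSPB1 in HS scramble ranged over 0.22, with 61.6% of genes smaller. In HS siLonp1 it was 0.17 for HSPB1, 0.11 for CRYAB, 0.23 for HSPB8 and 0.24 for HSPB11, with 54.4%, 30.8%, 72.1% and 73.2% of genes smaller. In HS+REC siLonp1 the range over the 3 libraries was 0.55 on the log2 scale for HSPB1, 0.92 for CRYAB and 0.91 for HSPB8, against a median range of 0.22 over all genes tested and 0.09 for HSPB11. Replicate 1 was highest and replicate 3 lowest in all 3 heat-raised genes, at 0.36 above and 0.19 below the group mean for HSPB1 and at 0.40 above and 0.52 below it for CRYAB. Of 8 genes that work with small heat shock proteins, described next, BAG3, HSPA1A, HSPA1B and HSPA8 took the same order and STUB1, SYNPO, SQSTM1 and DNAJB6 another. In HS+REC scramble replicate 3 was highest for HSPB1 and CRYAB and for 4 of these 8 genes (BAG3, HSPA1A, HSPA1B and STUB1), but it was lowest for HSPB8. The part of this spread in the siLonp1 comparisons is given above by the values without single libraries.

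**Figure D3:**
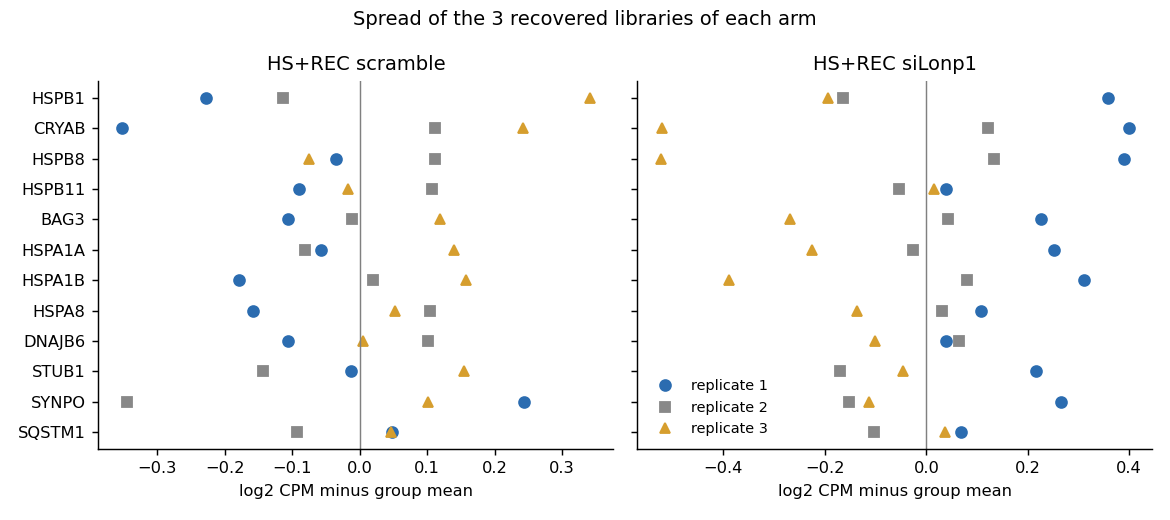
Log2 CPM of each HS+REC library minus the mean of its group (x axis), for the 4 genes and for the 8 tested genes of the degradation partners list; marker shapes and colours are replicate numbers. In siLonp1 (right) replicate 1 is highest and replicate 3 lowest for HSPB1, CRYAB, HSPB8, BAG3, HSPA1A, HSPA1B and HSPA8, while HSPB11, DNAJB6, STUB1, SYNPO and SQSTM1 show another order.

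The genes with which small heat shock proteins hand clients to refolding and degradation were followed as a list of 9, of which 8 were measured well enough to test. After HS 5 rose and 0 fell in each arm, and at HS+REC 6 rose and 1 fell in each arm. Their median log2 change was 1.04 after HS and 1.87 after HS+REC in scramble, against medians of -0.01 and 0.00 over all genes tested. Of all genes, 18.6% rose and 17.3% fell with HS in scramble and 20.2% and 22.1% in siLonp1, and with HS+REC the shares were 21.8% and 20.5% in scramble and 24.6% and 26.6% in siLonp1. BAG3, the partner of HSPB8, rose from 27.1 ± 0.658 CPM in Ctrl scramble to 1126 ± 42.5 in HS and 1627 ± 128 in HS+REC (SD, n = 3). HSPA8, the constitutive HSC70, rose from 3007 ± 73.7 CPM to 6741 ± 608 and 9881 ± 929 CPM in the same groups. HSPA1A and HSPA1B, the inducible HSP70 genes, are near-identical copies between which reads can be split, and they rose 139-fold and 104-fold with HS in scramble. SQSTM1, the autophagy receptor p62, was the gene that fell at HS+REC, by 0.17 on the log2 scale in scramble and by 0.37 in siLonp1, and STUB1, the ubiquitin ligase CHIP, did not pass with heat.

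Under siLonp1, 2 of these 8 genes rose and 0 fell in Ctrl, 4 rose and 1 fell in HS, and 4 rose and 2 fell in HS+REC. The share of all tested genes that rose was 26.3%, 28.1% and 26.8%, and the share that fell was 22.9%, 26.7% and 27.3%. BAG3 had a log2 difference of -0.06 in Ctrl and did not pass there, and it rose by 0.29 in HS and 0.22 in HS+REC (edgeR adjusted p = 0.00629 and 0.0315). HSPA8 rose by 0.42 in HS and 0.24 in HS+REC. The actin-associated gene SYNPO, a binding partner of BAG3, rose in all 3 conditions, by 1.14, 0.60 and 0.99 on the log2 scale. HSPA1A rose by 0.36 in Ctrl (edgeR adjusted p = 0.00537), where HSPA1B stood at 0.04 and did not pass. In heated cells neither passed, at 0.15 and 0.14 in HS and at -0.05 and -0.06 in HS+REC. DNAJB6, an HSP40 co-chaperone, rose by 0.42 in HS and 0.24 in HS+REC. STUB1 fell by 0.22 in HS and 0.27 in HS+REC, and SQSTM1 fell by 0.24 in HS+REC.

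The other 7 genes of the small heat shock protein family did not reach the level needed for a test. HSPB6 had 7 to 34 counts in every library, with sums of 93 in the Ctrl groups, 90 in the HS groups and 120 in the HS+REC groups. HSPB2, which faces CRYAB on the opposite strand, had 0 counts in the 6 Ctrl libraries, 7 in the 6 HS libraries and 23 in the 6 HS+REC libraries. HSPB9 had 1, 3 and 15 counts in the same sets. HSPB3, HSPB7 and ODF1 had at most 3 counts in a library, and CRYAA, the lens alpha-A-crystallin, had 0 in all 18.

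HSPB11 was set beside 16 other genes of the IFT-B complex, all of which could be tested. Under siLonp1 9 fell and 0 rose in Ctrl, 7 fell and 1 rose in HS, and 6 fell and 0 rose in HS+REC. Of all genes tested, 22.9%, 26.7% and 27.3% fell and 26.3%, 28.1% and 26.8% rose in these conditions. The IFT-B genes' median log2 differences were -0.21, -0.17 and -0.20, against 0.01, 0.00 and 0.00 over all genes tested. CLUAP1 (IFT38) fell by 0.78, 0.59 and 0.74 on the log2 scale in Ctrl, HS and HS+REC, from 36.4 ± 1.39 CPM in Ctrl scramble to 21.1 ± 0.375 CPM in Ctrl siLonp1 (SD, n = 3). IFT74, a core subunit, fell by 0.50, 0.44 and 0.57, and TTC26 (IFT56) by 0.39, 0.44 and 0.48. TTC30B fell by 0.62, 0.68 and 0.66 at 1.07 to 2.67 CPM in the group means, while its close copy TTC30A did not pass. IFT27, the small GTPase that pairs with the HSPB11 protein, stood at -0.09, 0.11 and 0.13 and did not pass in any condition. IFT20 was the gene that rose, by 0.26 in HS. Heat gave small changes on both sides of 0. With HS 0 of the 16 rose and 4 fell in scramble (median log2 change -0.02) and 2 rose and 3 fell in siLonp1 (0.06), and with HS+REC 2 rose and 0 fell in scramble (0.12) and 5 rose and 1 fell in siLonp1 (0.09). The shares of all genes that rose and fell were 18.6% and 17.3%, 20.2% and 22.1%, 21.8% and 20.5%, and 24.6% and 26.6% in the same order. From HS to HS+REC 3 rose in scramble and 1 in siLonp1 and 0 fell, where 14.2% and 16.3% of all genes rose. In this step 16 of the 16 estimates lay above 0 in scramble, and in siLonp1 11 lay above and 5 below.

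**Figure D4:**
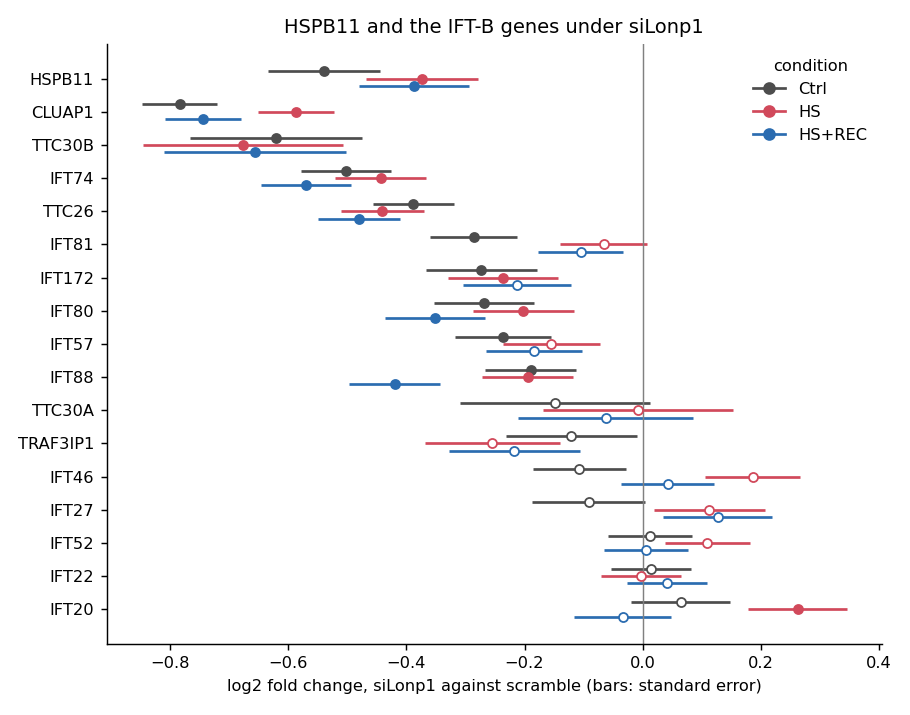
Log2 fold change of siLonp1 against scramble (x axis; bars are the standard error of edgeR's estimate) for HSPB11 and 16 other IFT-B genes in Ctrl, HS and HS+REC; filled points passed at an adjusted p of at most 0.05. HSPB11, CLUAP1, TTC30B, IFT74 and TTC26 lie below 0 and passed in all 3 conditions, and IFT22, IFT27, IFT46, IFT52, TTC30A and TRAF3IP1 did not pass in any of them.

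Over the 18 libraries the log2 CPM of the heat-raised genes ran closely together, with Pearson r between 0.986 and 0.9911 for their 3 pairs. HSPB11 had r between 0.102 and 0.1876 with them. These values describe libraries that share 6 groups, so a gene that follows the heat groups reaches a high r. The genes most alike to HSPB1 were SERPINH1 (r = 0.9956), which encodes the collagen chaperone HSP47, CRYAB (0.9911) and BAG3 (0.9904). CRYAB was most like SERPINH1 (0.9964), MICB (0.9935), a stress-induced ligand of natural killer cells, and DNAJA4 (0.9935), an HSP40 co-chaperone. HSPB8 was most like the growth factor gene PGF (0.9929), SERPINH1 (0.9925) and DNAJA4 (0.9922). HSPB11 was most like CCDC34 (0.952), NEK2 (0.947), a kinase of the centrosome cycle, and QPCT (0.9464), and all 3 had a lower mean CPM in siLonp1 than in scramble in each condition.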

How the data were processed

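The authors prepared stranded mRNA libraries from 3 independent replicates per group, aligned paired-end reads to hg38 with STAR 2.7.3a and counted UCSC genes with featureCounts in R 3.6.3. The deposited values are raw counts per gene symbol, not normalized. The strand setting, the handling of shared reads and the annotation release are not given in the sources used here.

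Counts were fitted with edgeR 4.0.16 (R 4.3.3), with TMM factors (0.934 to 1.06), as 1 quasi-likelihood model of the 18 libraries. Genes with a CPM over 1 in fewer than 3 libraries were dropped. The prior count was 0.125 for fold changes and 2 for log2 CPM. Adjusted p-values are Benjamini-Hochberg over 12832 genes, and intervals are 95%. With 2 to 5 counts in a Ctrl group, ratios of summed counts with exact conditional intervals replaced fitted folds, and siLonp1 values of HSPB8 and CRYAB in Ctrl are not given. Intervals from counts cover counting error only, as PCR duplicates were not marked by molecular identifiers. Replicates differed by more than counting error (chi-square per degree of freedom 3.48 to 25.8), so none was taken as a duplicate. The procedure was tested on simulated data in which only well-counted genes changed and all genes had the same spread. That test does not cover genes with almost no Ctrl counts, such as CRYAB and HSPB8.

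The genes and lists were chosen with earlier results of these data known. Named are the 4 genes, LONP1, members of the lists, and for each of the 4 genes the 3 genes with the highest Pearson r of log2 CPM. Alternatives were RLE factors, library size alone, other filters, DESeq2 1.42.0, an adjusted p of 0.01, fits on the compared groups alone, a block for the replicate number and each library left out. Promoters come from a RefSeq table and figures were drawn with matplotlib 3.10.9.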

Additional observations from a re-analysis of the deposited data

Results flagged for a closer look

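DNAJB6, an HSP40 co-chaperone of the degradation partners list, was raised more by HS in siLonp1 than in scramble, by 0.47 on the log2 scale (SE 0.08, interaction of siLonp1 and HS, edgeR adjusted p = 0.00310). It stood at 111 ± 2.53 CPM in Ctrl scramble and 209 ± 4.11 in HS scramble, and at 108 ± 1.86 CPM in Ctrl siLonp1 and 279.6 ± 9.40 in HS siLonp1 (SD, n = 3). LONP1, the silenced gene, differed in the depth of its silencing between conditions. The interaction of siLonp1 with HS was -0.76 on the log2 scale, that with HS+REC was 0.43 and that with HS+REC against HS was 1.18 (edgeR adjusted p = 0.000468, 0.0321 and 1.18e-06). LONP1 in siLonp1 stood at 20.4 ± 1.75 CPM at 37 °C, 11.7 ± 0.154 after HS and 27.2 ± 1.64 after HS+REC, and the part of this difference in the siLonp1 comparisons of the small heat shock protein genes was not tested. No interaction of HSPB1 or HSPB11 passed.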

How the results depend on the processing

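The rise of HSPB1 with heat and the fall of HSPB11 under siLonp1 kept their direction and passed under every alternative run. Nothing is read from CRYAB and HSPB8 passing with heat, since the heated libraries admitted them to the test. With CPM above 1 required in all 18 libraries only HSPB1 and HSPB11 were tested, so the genes passing were 1 for HS in each arm, 1 for HS+REC in scramble, 0 for HS+REC against HS in scramble and 1 in siLonp1. At an adjusted p of 0.01, HS+REC against HS in scramble kept 1 and siLonp1 in HS+REC kept 1. With no filter siLonp1 passed 2 in Ctrl and 2 in HS, and with the compared groups alone it passed 2 each in these conditions and 1 in HS+REC. Leaving out each library gave 1 to 3 for HS+REC against HS in scramble, 1 to 2 for siLonp1 in Ctrl and in HS, and 1 to 4 for siLonp1 in HS+REC.

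Values near 0 changed sign. With library size alone they were -0.021 for HSPB11 with HS+REC in scramble, -0.025 for HSPB8 under siLonp1 in HS, -0.016 for the HSPB1 interaction with HS and 0.011 for the HSPB11 interaction with HS+REC against HS, and with the compared groups alone the last pair were -0.0053 and 0.0107. Over single libraries left out, the ranges were -0.15 to 0.036 for HSPB11 with HS in scramble, -0.15 to 0.20 for HSPB8 under siLonp1 in HS, -0.0082 to 0.43 for CRYAB under siLonp1 in HS+REC, -0.058 to 0.0365 and -0.076 to 0.33 for the HSPB1 interactions with HS and HS+REC, and -0.0775 to 0.32, -0.14 to 0.059, -0.17 to 0.27 and -0.0102 to 0.43 for the interactions of HSPB1, HSPB11, CRYAB and HSPB8 with HS+REC against HS. The cause was not tested.

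Replicate numbers are shared between groups, and the labels do not say whether they pair the libraries. In 0 of 9 comparisons did every pair correlate above 0.1 (range -0.38 to 0.46). Of 54 pairings of a library with another group, 17 correlated best with the library's own number. With 3 libraries a group, this check cannot settle whether some libraries shared a batch. With the replicate block, HSPB11 passed for HS+REC in siLonp1 (log2 0.22, edgeR adjusted p = 0.0483), and no other call on the 4 genes changed. Depth limits HSPB8 and CRYAB, where 3 counts equal 0.063 to 0.095 CPM.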

Other observations

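HSPB1 is phosphorylated by kinases downstream of p38 and by protein kinase D. A list of 9 genes held these kinases, the p38 genes MAPK14 and MAPK11, and AKT1, and 8 of the 9 could be tested. After HS 1 rose and 2 fell in each arm, and after HS+REC 1 rose and 3 fell in scramble and 1 rose and 4 fell in siLonp1. Beside these, 18.6% to 24.6% of all genes tested rose and 17.3% to 26.6% fell. PRKD2, a protein kinase D gene, rose from 30.5 ± 1.00 CPM in Ctrl scramble to 69.3 ± 7.48 in HS and 91.1 ± 8.71 in HS+REC (SD, n = 3), and its log2 change with HS was 1.19 in scramble and 1.29 in siLonp1. Among the kinases that act on HSPB1 under p38, MAPKAPK2 and MAPKAPK3 fell by 0.17 and 0.20 with HS in scramble, and MAPKAPK5 did not pass (-0.0046, edgeR adjusted p = 0.959). Under siLonp1 5 of the 8 rose and 2 fell in Ctrl, 4 rose and 1 fell in HS, and 5 rose and 2 fell in HS+REC, with medians of 0.23, 0.17 and 0.17 on the log2 scale. Of all genes tested, 26.3%, 28.1% and 26.8% rose and 22.9%, 26.7% and 27.3% fell in these conditions. MAPKAPK2 rose by 0.48, 0.47 and 0.43 in Ctrl, HS and HS+REC, and MAPK11, which encodes a p38 kinase, by 0.50, 0.76 and 0.74.

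Of the heat shock factor genes, HSF1 fell under siLonp1 in all 3 conditions, by 0.24, 0.43 and 0.39 on the log2 scale (edgeR adjusted p = 0.00754, 2.44e-05 and 6.08e-05). It stood at 96.1 ± 4.28 CPM in HS scramble and 71.6 ± 0.923 in HS siLonp1 (SD, n = 3). HSF1 did not pass with heat, at 0.12 for HS in scramble and -0.07 for HS in siLonp1. HSF2 fell from HS to HS+REC by 0.45 in scramble and 0.51 in siLonp1. HSF4, at 1.71 to 3.66 CPM, rose by 0.45 in this step in scramble (edgeR adjusted p = 0.0433) and did not pass in siLonp1 (0.22, edgeR adjusted p = 0.324). Neither HSF2 nor HSF4 passed for siLonp1 in any condition. These are mRNA levels, and protein was not measured here. By immunoblot, the study reported more nuclear HSF1 protein when Lonp1 was knocked down before heat and recovery.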
